A study of Rattus norvegicus with 24 samples.

Results

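The miR-30 family was followed through its 5p arms, the strands cut from the 5′ side of each hairpin. The array annotates rat probes as rno-miR-30a-5p, rno-miR-30b-5p, rno-miR-30c-5p, rno-miR-30d-5p and rno-miR-30e-5p, and these 5 of the 758 miRs on the array were taken by name alone, without use of their signals. Total RNA enriched for miRs came from INS1, a rat insulinoma line used as a model of the insulin-producing beta cell, and was hybridised to 24 one-colour arrays. All cells were incubated for 48 h first. The 4 conditions were untreated cells (Ctrl), cells given 150 pg/ml IL-1β with 0.1 ng/ml IFN-γ (Cyt), cells given 125 nM Givinostat, an inhibitor of lysine deacetylases, without cytokines (Giv_Ctrl), and cells given Givinostat 1 h before the same cytokines (Giv_Cyt). Each condition was harvested at 6 h and at 24 h with 3 arrays per group. INS1 is a single tumour-derived line, and the submitters' design text calls the 3 arrays of a group technical replicates, so the p-values measure the spread between these arrays, which may be technical.

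MiRs are short RNAs that guide the Argonaute complex to messenger RNAs, mostly through pairing of the seed near their 5′ end, and lower the stability or translation of these targets. Members of one family share the seed and therefore share many predicted targets, while the rest of their sequence differs. The miR-30 family is widely expressed in epithelial tissues, and in the pancreatic islet it has been linked to the upkeep of the epithelial and endocrine state of the cells. IL-1β and IFN-γ are proinflammatory cytokines that impair beta cells, and the comparisons ask whether these cytokines, Givinostat or their combination shift the level of each member.

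Mature sequences from RefSeq on the GRCr8 rat assembly were found for 3 of the 5 members, rno-miR-30a-5p, rno-miR-30c-5p and rno-miR-30e-5p. They are shown, with bases 2 to 8 from the 5′ end (the seed) in capitals, because they define the family and show where its members part. The fourth sequence is the only other miR with the same seed among the 685 on the array for which RefSeq gave a sequence.
rno-miR-30a-5p: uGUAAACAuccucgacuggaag
rno-miR-30e-5p: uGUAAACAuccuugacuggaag
rno-miR-30c-5p: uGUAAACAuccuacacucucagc
rno-miR-384-5p: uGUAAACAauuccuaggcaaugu

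The seed GUAAACA was held by 4 of the 685 miRs on the array for which RefSeq gave a sequence. The first 12 bases were equal in the 3 members. Counted from 1 at the 5′ end, rno-miR-30a-5p and rno-miR-30e-5p differed by 1 of 22 bases, the substitution C13U. rno-miR-30c-5p differed from either of them at 5 of the 22 bases compared, whereas rno-miR-384-5p shared no more than the first 8 bases before its sequence departed. On GRCr8, rno-miR-30a-5p lies at chr9:33233946-33233967 on the plus strand and rno-miR-30e-5p at chr5:139637504-139637525 on the minus strand. rno-miR-30c-5p is made from 2 genes, at chr5:139634505-139634527 on the minus strand and at chr9:33253695-33253717 on the plus strand. Mir30c1 and Mir30e are 2906 bases apart, both inside the protein-coding gene Nfyc, which encodes a subunit of the transcription factor NF-Y. Mir30a and Mir30c2 are 19670 bases apart on chromosome 9. Mir30b and Mir30d are neighbours on chromosome 7.

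Each member was read by 2 probe sequences of 8 spots each. For the 3 members with a mature sequence the probes pair with the 3′ portion of the miR and leave out most of the seed. The longer probe of the 2 members that differ by 1 base is given with the base opposite position 13 of the miR in capitals, since this is the only base that separates them.
rno-miR-30a-5p probe: cttccagtcGaggatg
rno-miR-30e-5p probe: cttccagtcAaggatgt

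The probe of 16 bases pairs with bases 7 to 22 of rno-miR-30a-5p, and the probe of 17 bases with bases 6 to 22 of rno-miR-30e-5p. Each probe of one has 1 mismatch with the other miR, so the signals of rno-miR-30a-5p and rno-miR-30e-5p may each hold some of the other. The share of such cross-hybridisation was not tested. The probes of rno-miR-30c-5p have 5 mismatches with either, and 1 further base opposite position 23, which these miRs of 22 bases lack.

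Of the 758 miRs, 117 were above background on all 24 arrays, meaning that at least 8 of their 16 spots carried the scanner's mark for a signal well above background. No spot was saturated. Array brightness, the 75th percentile of the background-subtracted signal over those 117 detected miRs, ranged from 271 to 1003 in scanner units. It was 596, 742 and 1003 on the 24h_Cyt arrays and 271, 347 and 347 on the 24h_Ctrl arrays. The 24 arrays lay on 4 slides, with all 24h_Ctrl arrays on slide 4, and the 24h_Cyt arrays on slides 1 and 2, so that these groups shared no slide. Of 8 miRs listed as endocrine or beta-cell markers, 4 were above background on all arrays, among them rno-miR-7a-5p, which had the highest median of the 758, and rno-miR-375-3p, a miR enriched in islets. The other 4, rno-miR-184, rno-miR-200a-3p, rno-miR-200b-3p and rno-miR-429, were above background on no array. Of 13 markers of liver, muscle, blood, vessel and exocrine cells, 10 were above background on no array and only rno-miR-206-3p was above background on all 24.

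All 5 members were above background on all 24 arrays. rno-miR-30b-5p and rno-miR-30d-5p had all 16 spots well above background on each array. The other members owed this mark mainly to their longer probe, and the lowest number of marked spots on an array was 8 for rno-miR-30a-5p, rno-miR-30c-5p and rno-miR-30e-5p. Values are given as normalised log2 signals, the mean over the 16 spots after quantile normalization. Over the 24 arrays the signal of rno-miR-30a-5p spanned 6.27 to 6.97, that of rno-miR-30b-5p 7.09 to 7.83 and that of rno-miR-30c-5p 6.42 to 6.88. The signal of rno-miR-30d-5p spanned 7.16 to 7.70 and that of rno-miR-30e-5p 6.54 to 7.31. The probes differ in length and composition, so the levels of different members cannot be ranked against each other.

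**Figure D1:**
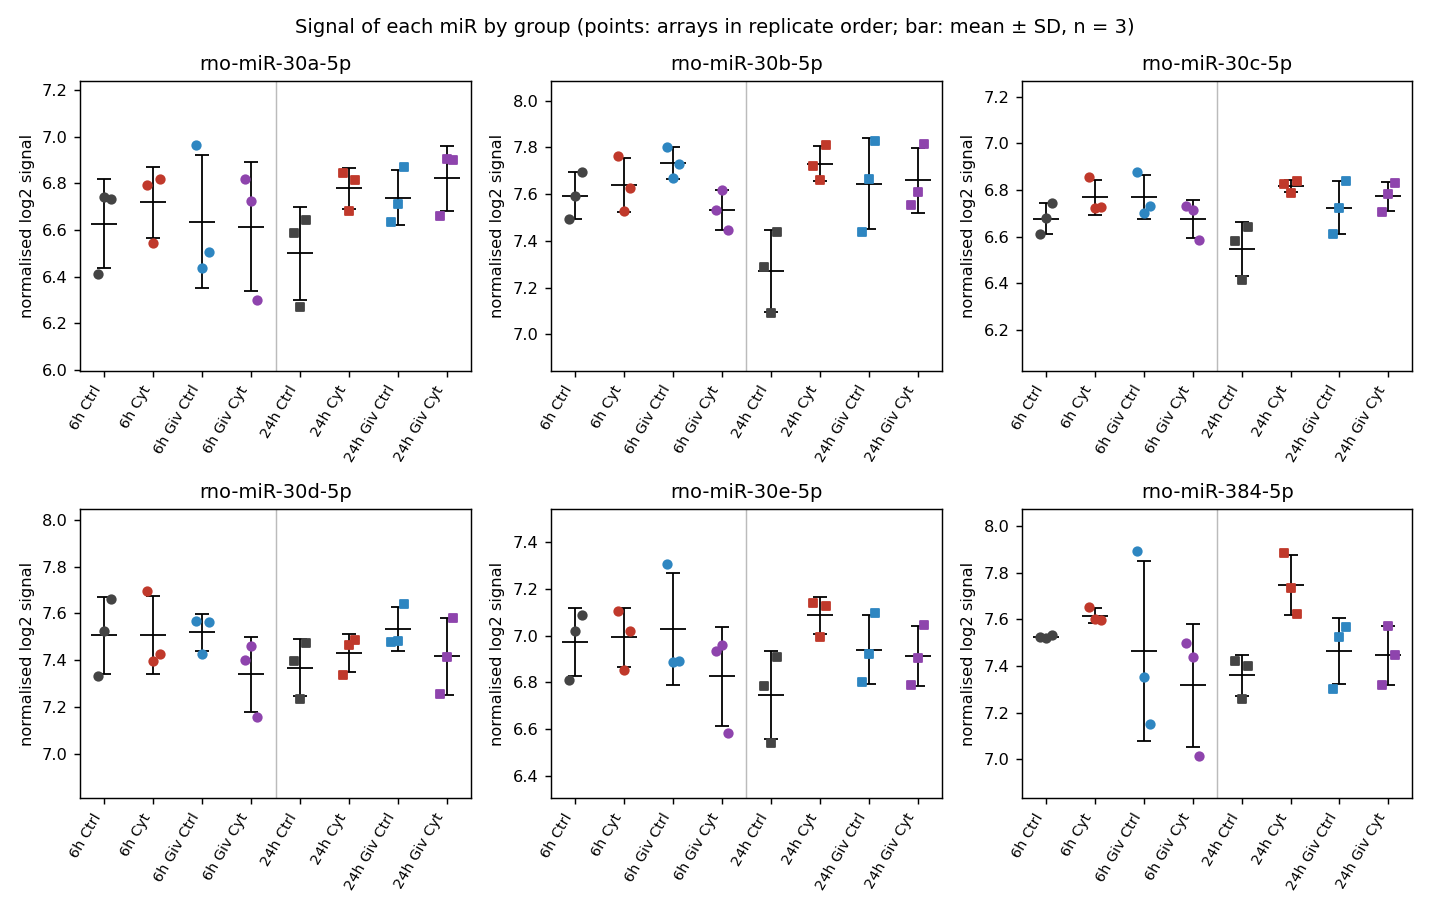
Normalised log2 signal (y axis) of the 5 members and of rno-miR-384-5p in the 8 groups (x axis), with 1 point per array in replicate order (circles 6 h, squares 24 h) and the mean ± SD of 3 arrays as a bar. Each panel spans the same height on the log2 scale. The 24h_Ctrl arrays are the lowest group of 4 members, and rno-miR-30d-5p is the member whose 24h_Ctrl and 24h_Cyt arrays overlap.

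rno-miR-30b-5p and rno-miR-30c-5p rose in cytokine-exposed cells at 24 h, and the other members were not called. Neither call held in the pooled test over spots, the test of the study's methods, where the adjusted p was 0.203 for rno-miR-30b-5p and 0.226 for rno-miR-30c-5p. Both were also lost with slide as a fixed block, with array brightness as a covariate or without replicate 2 of 24h_Ctrl. With slide as a fixed block the log2 fold changes were 0.65 ± 0.15 (SE) and 0.36 ± 0.11 (SE), higher and less precise than as reported. A miR was called where limma gave a Benjamini-Hochberg adjusted p below 0.05 over all 758 miRs and the fold change passed 1.1. By this rule 2 of the 5 members rose and none fell, against 31 of 758 miRs called in either direction (4.09%), of which 20 rose. The median log2 fold change was 0.28 over the members and -0.06 over the 117 miRs above background on all arrays.

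rno-miR-30b-5p had log2 signals of 7.29, 7.09 and 7.44 in 24h_Ctrl and of 7.72, 7.66 and 7.81 in 24h_Cyt. Each cytokine array was above each control array. The log2 fold change was 0.46 ± 0.10 (SE, n = 3 against 3, adjusted p = 0.00957), a fold of 1.38. rno-miR-30c-5p had 6.58, 6.42 and 6.64 in 24h_Ctrl and 6.83, 6.79 and 6.84 in 24h_Cyt. Here too the groups did not overlap, and the cytokine arrays had an SD of 0.03. The log2 fold change of rno-miR-30c-5p was 0.27 ± 0.07 (SE, adjusted p = 0.0183), a fold of 1.21.

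rno-miR-30e-5p, which shares its genomic neighbourhood with 1 copy of rno-miR-30c-5p, had 6.79, 6.54 and 6.91 in 24h_Ctrl and 7.14, 6.99 and 7.13 in 24h_Cyt. The cytokine arrays were all higher, yet the difference of 0.34 ± 0.13 (SE) on the log2 scale did not pass the adjustment (adjusted p = 0.123). rno-miR-30a-5p had 6.59, 6.27 and 6.64 in 24h_Ctrl and 6.84, 6.68 and 6.81 in 24h_Cyt. Its groups were separated by only a small gap, and the difference of 0.28 ± 0.15 (SE) was not called (adjusted p = 0.274). Each of these intervals leaves room for a change as large as that of rno-miR-30b-5p, with 95% intervals of 0.07 to 0.61 for rno-miR-30e-5p and of -0.04 to 0.60 for rno-miR-30a-5p.

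rno-miR-30d-5p, the genomic neighbour of rno-miR-30b-5p, had 7.40, 7.24 and 7.47 in 24h_Ctrl and 7.34, 7.47 and 7.49 in 24h_Cyt. The groups overlapped. Its log2 fold change was 0.06 ± 0.10 (SE, adjusted p = 0.758), with a 95% interval of -0.16 to 0.28. In all, 4 of the 5 members had 24h_Cyt arrays wholly above the 24h_Ctrl arrays, a pattern found in 124 of the 758 miRs (16.4%). Counted in either direction, these groups lay apart for 36.7% of all miRs and for 47.9% of those above background on all arrays, as the members are.

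Whether rno-miR-30b-5p and rno-miR-30d-5p moved unequally was tested on their difference within each array, from which any shift common to both drops out. The signal of rno-miR-30b-5p minus that of rno-miR-30d-5p was -0.11, -0.15 and -0.03 on the 24h_Ctrl arrays and 0.39, 0.20 and 0.32 on the 24h_Cyt arrays. The arrays did not overlap, and the log2 fold changes of the 2 members differed by 0.40. The two-sided exact permutation p was 0.1, the smallest that 3 arrays against 3 allow. Over the 10 pairs of members, 8 reached this smallest exact p, and none passed after Benjamini-Hochberg adjustment (lowest adjusted p = 0.125), which this exact test cannot do with 3 arrays a group.

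The longer of the 2 probes was the brighter one for each member. The gap between them averaged 1.78 on the log2 scale for rno-miR-30b-5p, 1.42 for rno-miR-30e-5p, 1.07 for rno-miR-30c-5p, 0.99 for rno-miR-30a-5p and 0.28 for rno-miR-30d-5p. In 24h_Cyt against 24h_Ctrl both probes of each of the 5 members gave a positive log2 fold change. Tested apart, 2 of the 10 probes were called, and these were the longer probe of rno-miR-30b-5p (0.60 ± 0.10, SE, adjusted p = 0.00205) and that of rno-miR-30c-5p (0.35 ± 0.08, SE, adjusted p = 0.0240). The share called over all probes of the array is not given here, so this count cannot be set against it. The shorter probe of rno-miR-30b-5p gave 0.32 ± 0.11 (SE, adjusted p = 0.114).

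With Givinostat present no member was called between the cytokine groups at 24 h, and the log2 differences lay near 0 after quantile normalization. rno-miR-30b-5p had 7.44, 7.67 and 7.83 in 24h_Giv_Ctrl and 7.55, 7.61 and 7.81 in 24h_Giv_Cyt, and rno-miR-30c-5p had 6.61, 6.72 and 6.84 against 6.71, 6.78 and 6.83. The groups overlapped for both. The log2 fold changes of 24h_Giv_Cyt against 24h_Giv_Ctrl were 0.01 ± 0.10 (SE) and 0.05 ± 0.07 (SE), and those of all 5 members ran from -0.12 to 0.08. None was called, against 4 of 758 miRs (0.528%), and no member had an unadjusted p below 0.05. For rno-miR-30b-5p the 95% interval was -0.19 to 0.22. The level of these differences rested on the scaling. They ran from 0.38 to 0.52 without normalization, where the detected miRs had a median of 0.43. There all 5 members were called, against 323 of 758 miRs, each of them higher. With the processed signal the members' differences ran from 0.02 to 0.39 when set to the 75th percentile over detected miRs. They ran from -0.52 to -0.15 when set to that over all miRs. The medians of the detected miRs were 0.10 and -0.44 in that order.

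No member was called between the 2 cytokine groups at 24 h, with and without Givinostat. In 24h_Giv_Cyt against 24h_Cyt the members' log2 fold changes ran from -0.17 for rno-miR-30e-5p to 0.04 for rno-miR-30a-5p, and the groups of each member overlapped. The 24h_Giv_Cyt arrays were on slides 3 and 4 and the 24h_Cyt arrays on slides 1 and 2. Givinostat and slide thus cannot be told apart here. On the array 1 of 758 miRs was called (0.132%).

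In 24h_Giv_Ctrl against 24h_Ctrl all 5 log2 fold changes were positive, from 0.17 for rno-miR-30d-5p to 0.37 for rno-miR-30b-5p. The 24h_Giv_Ctrl arrays of rno-miR-30b-5p, with 7.44 as the lowest, lay just above the highest 24h_Ctrl array at the same rounded value. rno-miR-30d-5p, with 7.48, 7.48 and 7.64 in 24h_Giv_Ctrl, also lay above its 24h_Ctrl arrays. Such a separation upwards was found for 36 of 758 miRs (4.75%). No member was called by limma, as was no miR at all (0%). Of the members, rno-miR-30b-5p (0.37 ± 0.10, SE, adjusted p = 0.405) and rno-miR-30c-5p (0.18 ± 0.07, SE, adjusted p = 0.893) had an unadjusted p below 0.05, as did 32 of the 758 miRs.

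The difference between the cytokine effects with and without Givinostat at 24 h was tested as an interaction term. It was negative for all 5 members after quantile normalization, while rno-miR-30a-5p turned to 0.02 with arrays centred on detected miRs. The values ran from -0.18 ± 0.15 (SE) for rno-miR-30d-5p to -0.45 ± 0.14 (SE, adjusted p = 0.784) for rno-miR-30b-5p. None was called, and no miR on the array was (0%), although the unadjusted p was below 0.05 for rno-miR-30b-5p, for rno-miR-30c-5p and for 39 of the 758 miRs. The effects with and without Givinostat were thus not shown to differ. These comparisons share the 24h_Ctrl arrays, and replicate 2 of that group had the lowest signal of all 24 arrays for rno-miR-30a-5p, rno-miR-30b-5p, rno-miR-30c-5p and rno-miR-30e-5p.

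**Figure D2:**
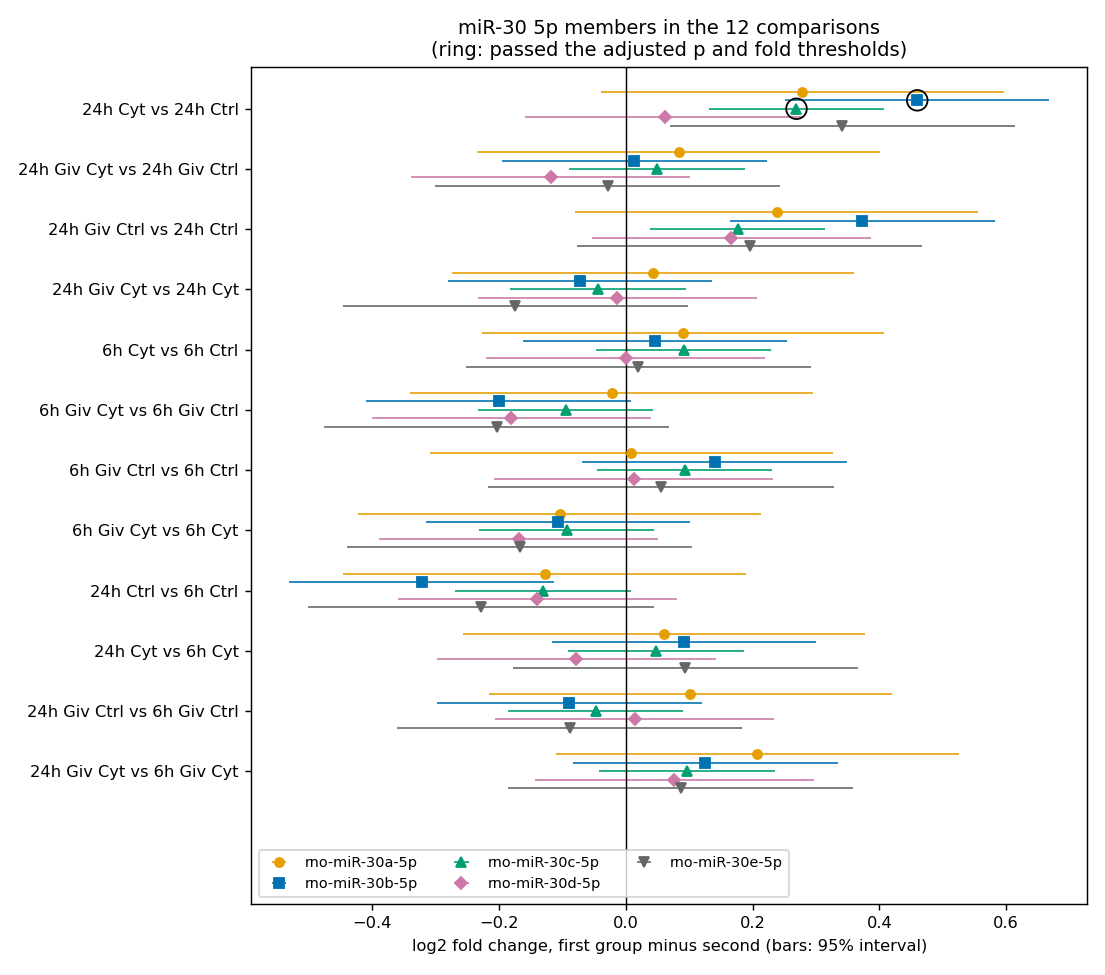
Log2 fold change (x axis, first group minus second, bars 95% interval) of the 5 members in the 12 comparisons (y axis), with rings on those that passed both thresholds. The rings are on rno-miR-30b-5p at 0.46 and rno-miR-30c-5p at 0.27, both in 24h_Cyt against 24h_Ctrl.

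At 6 h the fit on array means called no member in any of the 4 comparisons or in the interaction term. It called no other miR on the array either (0% in each). rno-miR-30b-5p had 7.49, 7.59 and 7.69 in 6h_Ctrl and 7.76, 7.53 and 7.63 in 6h_Cyt. The arrays were interleaved, and the log2 fold change was 0.05 ± 0.10 (SE). In 6h_Cyt against 6h_Ctrl the members ran from 0.00 for rno-miR-30d-5p to 0.09 for rno-miR-30c-5p, and 30 of the 758 miRs but no member had an unadjusted p below 0.05.

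Under Givinostat at 6 h the cytokine groups had lower means after quantile normalization. All 6h_Giv_Cyt arrays were on slide 3, which held no array of 6h_Giv_Ctrl or 6h_Cyt. Treatment and slide thus cannot be told apart when 6h_Giv_Cyt is set against either of these groups. The log2 fold changes of 6h_Giv_Cyt against 6h_Giv_Ctrl were negative for all 5 members, from -0.02 for rno-miR-30a-5p to -0.20 for rno-miR-30e-5p, but reached 0.07 with the processed signal divided by array brightness. rno-miR-30b-5p had 7.80, 7.67 and 7.73 in 6h_Giv_Ctrl and 7.53, 7.62 and 7.45 in 6h_Giv_Cyt. It was the only member whose groups did not overlap here (-0.20 ± 0.10, SE, adjusted p = 0.998), a separation downwards shared by 25 of 758 miRs (3.3%). In 6h_Giv_Cyt against 6h_Cyt the 5 values were also negative, from -0.17 to -0.09, and reached 0.02 under that scaling. In 6h_Giv_Ctrl against 6h_Ctrl they were positive, from 0.01 to 0.14, and went down to -0.05 with arrays centred on detected miRs. The groups overlapped for each member in both. The interaction term at 6 h ran from -0.25 to -0.11. In the fit on array means no member had an unadjusted p below 0.05 in these 3 comparisons or in the term. Of the 758 miRs 26, 24, 34 and 12 did. The pooled test over spots called rno-miR-30d-5p in 6h_Giv_Cyt against 6h_Cyt (-0.17 ± 0.05, SE, adjusted p = 0.0161), as against 21 of 758 miRs.

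Between the time points, the 24h_Ctrl arrays had lower mean signals than the 6h_Ctrl arrays. All arrays of 24h_Ctrl were on slide 4 and all of 6h_Ctrl on slide 2, so time and slide cannot be told apart. The log2 fold changes of 24h_Ctrl against 6h_Ctrl were negative for all 5 members, from -0.13 for rno-miR-30a-5p to -0.32 ± 0.10 (SE, adjusted p = 0.822) for rno-miR-30b-5p. All 3 arrays of rno-miR-30b-5p in 24h_Ctrl, 7.44 or less, were below those in 6h_Ctrl, 7.49 or more, as was the case for 36 of 758 miRs (4.75%). No miR was called (0%), and 39 of 758, with rno-miR-30b-5p as the only member, had an unadjusted p below 0.05.

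In the treated cells no member was called between the time points either. The values of 24h_Cyt against 6h_Cyt ran from -0.08 for rno-miR-30d-5p to 0.09 for rno-miR-30e-5p, with 6 of 758 miRs called (0.792%) and no member. Those of 24h_Giv_Ctrl against 6h_Giv_Ctrl ran from -0.09 to 0.10, with no miR called (0%) and 30 of 758, without a member, at an unadjusted p below 0.05. Those of 24h_Giv_Cyt against 6h_Giv_Cyt were positive for all members, from 0.08 to 0.21, but from -0.09 to 0.26 with the processed signal set to the 75th percentile over all miRs, with 3 of 758 called (0.396%) and no member. The groups of each member overlapped in these 3 comparisons. The 24h_Giv_Ctrl arrays, on slides 3 and 4, shared no slide with the 6h_Giv_Ctrl arrays, on slides 1 and 2. Time and slide thus cannot be told apart between these 2 groups. The test of whether the cytokine effect differed between 24 h and 6 h gave 0.41 ± 0.14 (SE, adjusted p = 0.332) for rno-miR-30b-5p and from 0.06 to 0.32 for the others. No member was called, against 4 of 758 miRs (0.528%).

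Ordered by group means, 24h_Ctrl was the lowest of the 8 groups for rno-miR-30a-5p, rno-miR-30b-5p, rno-miR-30c-5p and rno-miR-30e-5p, and the second lowest, after 6h_Giv_Cyt, for rno-miR-30d-5p. The highest group was 24h_Cyt for rno-miR-30c-5p and rno-miR-30e-5p, 6h_Giv_Ctrl for rno-miR-30b-5p, 24h_Giv_Cyt for rno-miR-30a-5p and 24h_Giv_Ctrl for rno-miR-30d-5p. For rno-miR-30b-5p the 7 groups other than 24h_Ctrl had means between 7.53 and 7.73, with SDs of 0.07 to 0.19, so most neighbours in that order lay within the spread of their arrays. The whole range of group means was 0.46 for rno-miR-30b-5p and 0.20 for rno-miR-30d-5p. Over the 8 group means, Pearson's r of a member with the mean of the other 4 was 0.95 for rno-miR-30b-5p, 0.94 for rno-miR-30c-5p, 0.88 for rno-miR-30e-5p, 0.73 for rno-miR-30a-5p and 0.54 for rno-miR-30d-5p. These values describe arrays that share slides, brightness and normalization.

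Brightness and slide moved with the groups compared at 24 h. Since no slide held both 24h_Ctrl and 24h_Cyt, no within-slide value exists for the comparison in which members were called. On slide 4 the 1 array of 24h_Giv_Ctrl was above the mean of the 3 arrays of 24h_Ctrl by 0.17 for rno-miR-30b-5p and by 0.06 to 0.14 for the other members. On the same slide the 2 arrays of 24h_Giv_Cyt had rno-miR-30b-5p signals of 7.55 and 7.61. With slide as a fixed block the log2 fold change of rno-miR-30b-5p in 24h_Cyt against 24h_Ctrl was 0.65 (adjusted p = 0.182), and no member was called, as against 1 of the 758 miRs. With array brightness as a covariate it was 0.35 and that of rno-miR-30c-5p 0.13, again with no member called and with 3 miRs called in all. In that fit rno-miR-30d-5p had 0.12, rno-miR-30e-5p 0.03 and rno-miR-30a-5p -0.07. With slide as a random block rno-miR-30b-5p (0.45, adjusted p = 0.0207) and rno-miR-30c-5p (0.26, adjusted p = 0.0373) were both called. Without the arrays of slide 1, which leaves 1 array of 24h_Cyt, rno-miR-30b-5p had 0.54 and rno-miR-30c-5p 0.29.

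**Figure D3:**
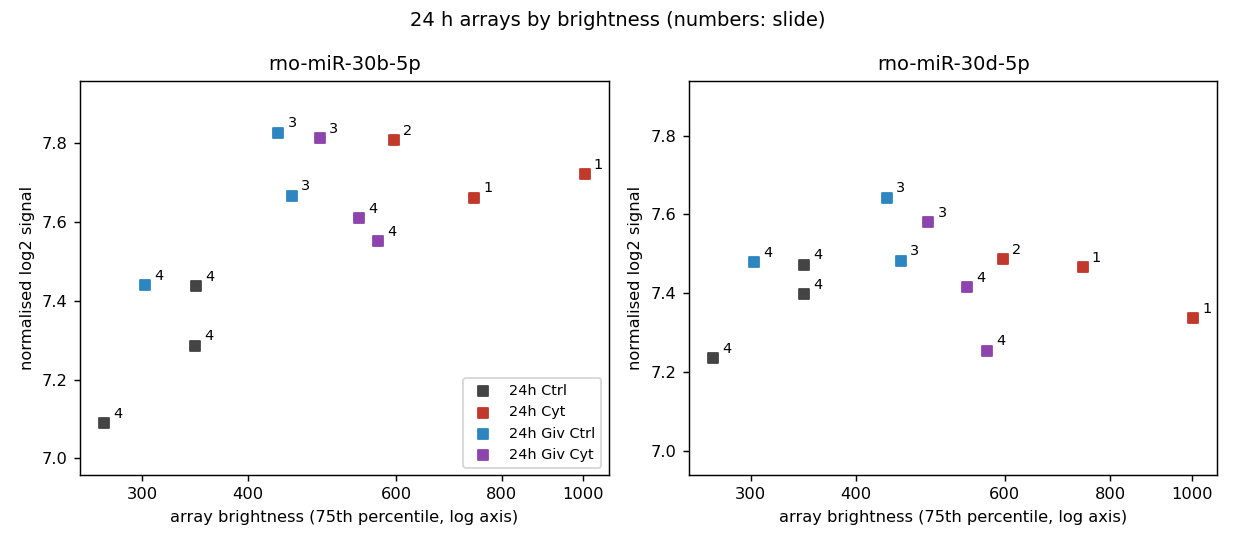
Normalised log2 signal (y axis) of rno-miR-30b-5p and rno-miR-30d-5p on the 12 arrays of 24 h against array brightness (x axis, log scale, 75th percentile of the signal of detected miRs), with the slide number beside each point. The 3 24h_Ctrl arrays are all on slide 4 at 271 to 347, and the 24h_Cyt arrays at 596 to 1003 are on slides 1 and 2.

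All 5 members kept a positive cytokine difference at 24 h under each scaling tried, while its size varied. Only the fit with brightness as a covariate turned rno-miR-30a-5p negative, at -0.07. Without normalization between arrays the 117 detected miRs rose by a median of 0.83 on the log2 scale in 24h_Cyt against 24h_Ctrl, and the members by 0.97 to 1.34, above that median. When each array was centred on its detected miRs, rno-miR-30b-5p kept 0.41 and was called, while rno-miR-30a-5p and rno-miR-30c-5p came down to 0.04 each. When the background-subtracted signal was divided by each array's brightness instead, the members rno-miR-30a-5p, rno-miR-30b-5p, rno-miR-30c-5p and rno-miR-30e-5p were called, at 0.56 to 0.65. rno-miR-30d-5p lay at 0.13 there. In that setting 84 of 758 miRs were called, 43 of them higher, against 31 called in the fit as reported. Leaving out replicate 2 of 24h_Ctrl, the lowest array, lowered rno-miR-30b-5p to 0.37 and rno-miR-30c-5p to 0.20, and neither was called (adjusted p = 0.0646 and 0.103). rno-miR-30c-5p was not called either without replicate 1 (0.26, adjusted p = 0.0812) or without replicate 2 (0.28, adjusted p = 0.0528) of 24h_Cyt.

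**Figure D4:**
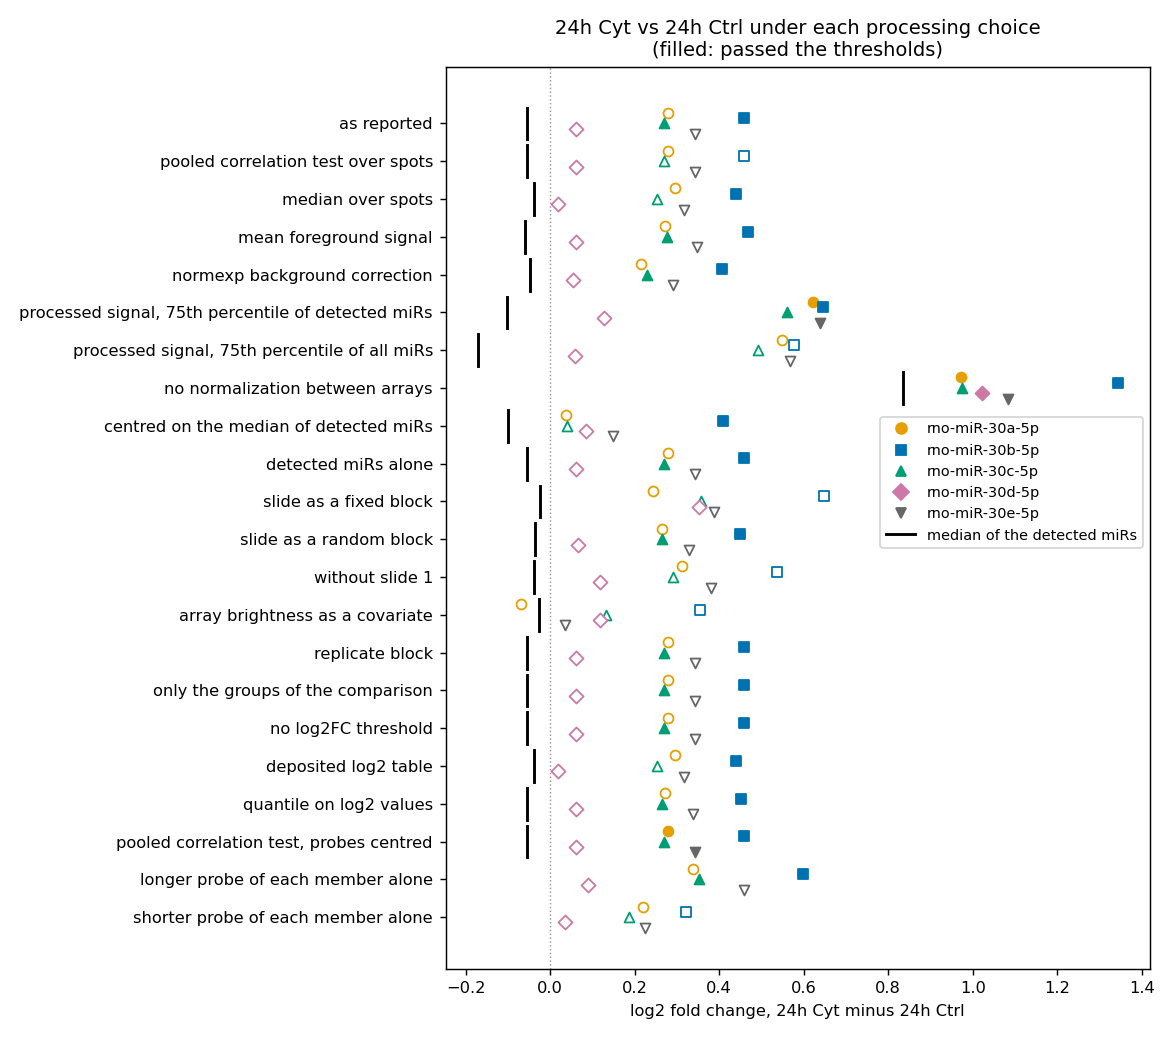
Log2 fold change of the 5 members in 24h_Cyt minus 24h_Ctrl (x axis) under each processing choice (y axis), with filled symbols where both thresholds were passed and a black line at the median of the detected miRs. rno-miR-30b-5p lies above that median in each row that has the line, which the rows for the longer or shorter probe alone lack. Its values run from 0.32 with the shorter probe alone to 1.34 without normalization.

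The opposite strands of the same hairpins, the 3p arms, were at background. The 6 arms on the array, rno-miR-30a-3p, rno-miR-30b-3p, rno-miR-30c-1-3p, rno-miR-30c-2-3p, rno-miR-30d-3p and rno-miR-30e-3p, passed the background mark 3 times in all over the 24 arrays, once for rno-miR-30b-3p and otherwise for rno-miR-30e-3p. None of the 6 was called in any comparison or term, and in 24h_Cyt against 24h_Ctrl their log2 differences ran from -0.10 to 0.03. Values at background hold no order, so nothing can be read from them about the strands or about transcription of the hairpins.

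rno-miR-384-5p, which carries the same seed but a different 3′ stretch and a locus on chromosome X, was above background on all 24 arrays. It had 7.42, 7.26 and 7.40 in 24h_Ctrl and 7.88, 7.74 and 7.62 in 24h_Cyt. The groups did not overlap, and the log2 fold change of 0.39 ± 0.15 (SE) was not called (adjusted p = 0.123). Under Givinostat the cytokine difference at 24 h was -0.02 ± 0.15 (SE). Its groups also lay apart in 24h_Giv_Cyt against 24h_Cyt and in 6h_Giv_Cyt against 6h_Cyt, with -0.30 ± 0.15 (SE) in each, as did 78 and 42 of the 758 miRs in this direction. They did not overlap either in 6h_Cyt against 6h_Ctrl (0.09) and in 24h_Ctrl against 6h_Ctrl (-0.16). The fit on array means called it in none of the 12 comparisons or 3 terms. The pooled test over spots called it in 5 of them, among them 24h_Cyt against 24h_Ctrl (adjusted p = 1.44e-09) and 24h_Giv_Cyt against 24h_Cyt (adjusted p = 2.48e-05).

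The 5 miRs whose 8 group means followed the mean of the members most closely, out of the 111 above background on all arrays that were neither members nor rno-miR-384-5p, were rno-miR-22-3p (Pearson's r = 0.97), rno-miR-204-5p (0.93), rno-miR-96-5p (0.91), rno-miR-23b-3p (0.91) and rno-miR-21-5p (0.86). In 24h_Cyt against 24h_Ctrl their log2 fold changes were 0.34, 0.25, 0.71, 0.30 and 0.57 in that order, and all but rno-miR-204-5p were called. On the array 31 of 758 miRs were called there (4.09%). The 5 miRs were picked by group means that include these 2 groups, so their rise is not independent of the choice. Over the 24 single arrays rno-miR-22-3p again had the highest r, at 0.92, and without normalization it did so as well. Of the 5 miRs, 2 stayed in the list over the single arrays, rno-miR-22-3p and rno-miR-96-5p, and 2 without normalization, rno-miR-22-3p and rno-miR-204-5p.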

How the data were processed

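The authors deposited 1 scanner file per array from Agilent Feature Extraction (10.7.3.1 per the file headers, 9.1 per the labels' processing notes), with the linear intensity of each spot, not normalized between arrays, and marks for spots above background or saturated. They also deposited a table of log2 values per miR and array. Set against the scanner files, it equals the median over 16 spots of log2 values taken after quantile normalization of the median foreground intensity (median absolute difference 2.63e-10), so its scale and direction are known. Here the same normalization, without background correction and after removal of control spots, was followed by the mean over the 16 spots of a miR. The study's methods pooled spots by a shared correlation instead, and that test is an alternative.

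All 24 arrays in 8 groups, mapped by their titles, entered 1 limma fit (R 4.3.3, limma 3.58.1) with 12 comparisons and 3 interaction terms. P-values were adjusted over 758 miRs, and a call needed an adjusted p below 0.05 and a fold above 1.1. The fit was tested on simulated data. No pair of arrays held identical values. Files hold no read depth, and the number of arrays limits the precision. Sequences and positions came from RefSeq tables on GRCr8, and the probes from the scanner files. The members, lists and alternatives were chosen with earlier results of these data known. The text names the 5 members, the 3p arms, miRs with the same seed, and the 5 detected miRs with the highest r over group means. Plots used Python 3.11.15 and matplotlib 3.10.9.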

Additional observations from a re-analysis of the deposited data

How the results depend on the processing

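In 24h_Cyt against 24h_Ctrl, 2 members were called. The count was 0 with the pooled correlation test over spots and with processed signals set to the 75th percentile over all miRs. The count was also 0 with slide as a fixed block, with brightness as a covariate and with the shorter probe of each member. It was 1 with the median over spots, in the deposited log2 table and with arrays centred on detected miRs, 4 with processed signals set to that of detected miRs, and 5 without normalization. Leaving out 1 array gave 0 to 2, with 0 without 24h_Ctrl replicate 2 and 1 without 24h_Cyt replicate 1 or 2. With the labels' replicate number as a block it stayed at 2, and the block changed no other call of a member. Over all 758 miRs it gave 30 calls there and 0 in place of 1 in 24h_Giv_Cyt against 24h_Cyt. The numbers pair no samples in the labels, and r between same-numbered arrays ran from -0.92 to 0.97, over 0.1 in 18 of 36 pairs. Over all 758 miRs the calls numbered 31 as reported, 48 in the pooled test, and 84 and 25 with the processed signal scaled to detected or all miRs. They numbered 173 without normalization, all higher, and 675 after centring, of which 657 were lower. There was 1 with the slide block, with 3 for brightness and 46 with no fold threshold. Higher calls were 64.5% as reported, 51.2% and 24.0% with the 2 scalings of the processed signal, 100% without normalization and 2.67% after centring, which moved the median of all miRs to -0.90.

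The pooled test takes the gap between the 2 probes of a miR as spread between spots, and it gave rno-miR-30b-5p an SE of 0.24. Centring each probe first, an alternative chosen after seeing the data, lowered this to 0.05. This fit treats the spots of an array as partly independent, with 1 correlation for all miRs. It called 4 members in 24h_Cyt against 24h_Ctrl, 5 in 24h_Giv_Ctrl against 24h_Ctrl, 5 in the Givinostat by cytokine term at 24 h and 4 in that at 6 h, 3 each in 6h_Giv_Cyt against 6h_Giv_Ctrl, 24h_Ctrl against 6h_Ctrl and the time by cytokine term, 2 in 6h_Giv_Cyt against 6h_Cyt, and 1 each in 24h_Giv_Cyt against 24h_Cyt and 24h_Giv_Cyt against 6h_Giv_Cyt. The uncentred pooled test called 1 member, rno-miR-30d-5p, in 6h_Giv_Cyt against 6h_Cyt (-0.17 ± 0.05, SE, adjusted p = 0.0161), as against 21 of 758 miRs. Without normalization 5 members were called in 24h_Giv_Cyt against 24h_Giv_Ctrl, in 24h_Cyt against 6h_Cyt and in the time by cytokine term, and 3 in 24h_Giv_Cyt against 6h_Giv_Cyt. For the fit with centred probes, and for these comparisons without normalization, the share called over all miRs is not given. Those counts cannot be read as particular to the members. Quantile normalization of log2 values, also chosen after seeing the data, left 2 called.

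Signs turned as follows. In 24h_Cyt against 24h_Ctrl, rno-miR-30a-5p was 0.28 as reported and -0.070 with brightness, and leaving out 1 array gave rno-miR-30d-5p -0.0046 to 0.11. In the Givinostat by cytokine term at 24 h, rno-miR-30a-5p was -0.20 as reported, 0.019 after centring and 0.030 with brightness. In the time by cytokine term, rno-miR-30a-5p was 0.19 as reported, -0.011 after centring and -0.095 with brightness, rno-miR-30c-5p was 0.18 as reported and -0.0049 after centring, and rno-miR-30d-5p was -0.0051 with the median over spots and in the deposited table and -0.016 to 0.16 with 1 array left out. The causes were not tested. Probes near background, with the shorter probes of 3 members marked on some arrays only, limit the smaller changes.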
